A study of Homo sapiens with 6 samples.

Results

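The genes described here are 10 members of the epidermal growth factor receptor (EGFR) system, namely the ligands HBEGF, AREG, EREG, TGFA and BTC, the receptors EGFR, ERBB2 and ERBB3, the feedback inhibitor ERRFI1 and the sheddase ADAM17. They were taken as the rows of the deposited table whose Ensembl gene ID maps to these symbols, 10 of 38900 rows. Expression was measured by polyA RNA sequencing in hTERT RPE1, an established human retinal pigment epithelial line immortalised with a telomerase transgene. Both groups were held for 5 days at full confluency, a step meant to make them quiescent, and both then received fresh medium for 6 hours. In the CA4 group the fresh medium held 100 nM combretastatin A4 (CA4), a small compound that occupies the colchicine site of tubulin and disassembles microtubules. In the DMSO group it held 0.1% DMSO. Each group has 3 libraries, called DMSO 1 to 3 and CA4 1 to 3 after the numbers in the labels. Nothing in the labels says that the libraries come from separate cultures, so p-values measure only the spread between these libraries, which may be technical.

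The ligands of EGFR are made as membrane-anchored precursors, and a metalloprotease such as ADAM17 cuts their extracellular part free to bind receptors on the same or neighbouring cells. Ligand binding pairs EGFR with itself or with ERBB2, a family member that needs no ligand of its own, or ERBB3, which signals mainly through such partners, and activates the RAS, ERK and PI3K cascades. ERRFI1 (also called MIG6) is induced by these cascades, binds the EGFR kinase domain and dampens it, which makes its transcript part of a negative feedback loop.

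The 6 libraries held 19524936 to 22538004 recovered reads, and 1 read was worth close to 1 normalized count. The table's unit is a read count divided by a scaling factor of the library, called a normalized count here. The keratins KRT8 and KRT18 and vimentin (VIM) were abundant in all 6 libraries, and the telomerase transcript TERT rose (log2 fold change 1.53, limma adjusted p = 0.0272), though native and transgene copies cannot be told apart. Of 10 retinal pigment epithelium markers 6 were tested and OTX2, a transcription factor of that epithelium, fell, while TTR was listed at 0 in every library. The summed level of the 10 was 1145 to 1850 in DMSO and 650 to 1055 in CA4. Of leukocyte markers, PTPRC lay between 2.8 and 10.6 normalized counts and CD3E was listed at 0 in every library. Endothelial markers (3 of 3 present) summed to 944 to 1427 in DMSO and 1304 to 3224 in CA4, CA4 3 being the highest. KRT14, a basal keratin, was at 0.95 in DMSO 3 and 1.93 in CA4 1 and between 121 and 154 in the other 4 libraries, while EPCAM and CDH1, markers of other epithelia, were too low to be tested. The part of these differences in the results on the EGFR system was not tested beyond leaving each library out in turn. In bulk RNA, fewer cells of a type and less RNA per cell cannot be told apart.

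HBEGF and ERRFI1 rose in CA4, by 5.35-fold and 2.07-fold. Folds and log2 differences here come from differences of mean log2 values and are not ratios of the mean counts. No member fell past the threshold. EGFR and ERBB2 had lower means in CA4, TGFA a higher one and ADAM17 nearly the same one, and these 4 missed the threshold. AREG, EREG, BTC and ERBB3 were close to the detection limit in both groups and were not tested. A gene was tested if its mean over the 6 libraries was at least 10 normalized counts. Of the 10 members 6 passed, and each of these 6 also passed within either group alone. Past the threshold means an adjusted p under 0.05 from limma, with Benjamini-Hochberg adjustment over all 13928 tested genes. By that measure 2 of the 6 tested members rose and 0 fell, beside 688 of all tested genes (4.94%), of which 413 were higher (2.97%) and 275 lower (1.97%). At an unadjusted p under 0.05, 5 of the 6 differed in the same limma fit, against 3197 of all 13928 tested genes. The members were chosen with earlier results of these data known, so these counts do not test the members as a set. The 3 libraries of each group did not overlap for 4 of the 6 (HBEGF, TGFA, EGFR and ERRFI1), against 27.7% of all tested genes. The median log2 fold change was 0.37 over the 6 members and -0.01 over all tested genes. Scaling each library to the same total moved the latter to -0.11 and the share of higher genes among those past the threshold from 60.0% to 34.8%, and left the same 2 members past it, both higher. The members' count did not hold in every fit: it was 0 in limma without a variance trend and 0 without DMSO 2, DMSO 3 or CA4 3, and over all genes the count ran from 81 to 994 with 1 library left out.

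**Figure D1:**
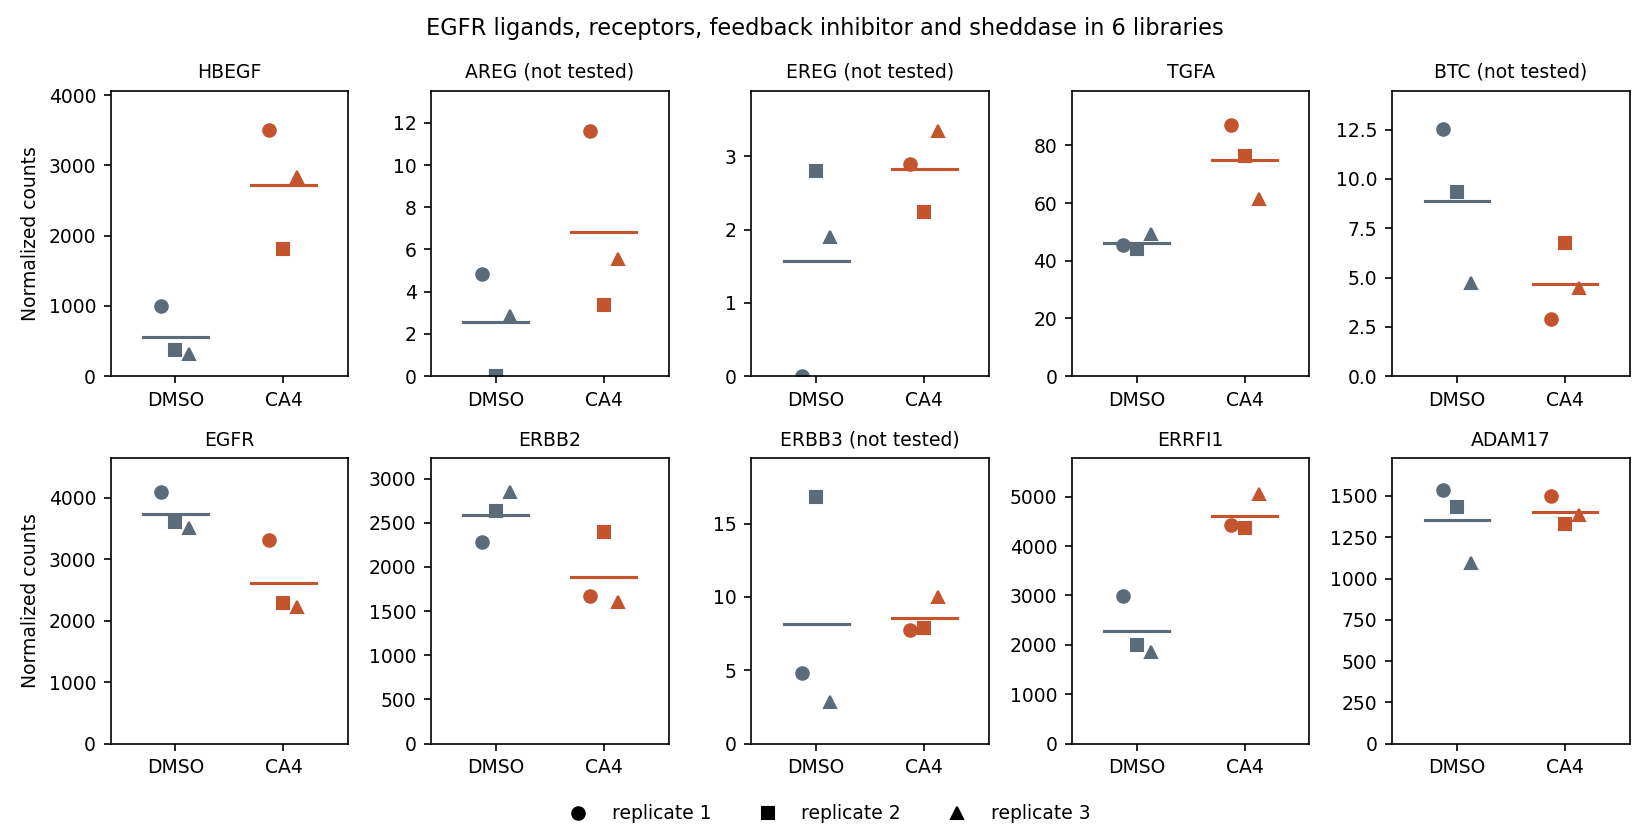
Normalized counts of the 10 members in each library, with a vertical scale from 0 for each gene, the replicate number as symbol and the group mean as a bar. The CA4 libraries lie above every DMSO library for HBEGF, TGFA and ERRFI1 and below every one for EGFR, while the 4 genes marked as not tested stay under 17 normalized counts.

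The 2 members that rose are shown with their promoters because they are the members past the limma threshold. Each sequence is the 250 bases before the RefSeq transcription start on GRCh38.p14, read 5′ to 3′ along the gene, and capitals mark GC boxes (GGGCGG, bound by SP1 family factors) and CCAAT boxes on either strand.
HBEGF, chr5:140346604-140346853, minus strand: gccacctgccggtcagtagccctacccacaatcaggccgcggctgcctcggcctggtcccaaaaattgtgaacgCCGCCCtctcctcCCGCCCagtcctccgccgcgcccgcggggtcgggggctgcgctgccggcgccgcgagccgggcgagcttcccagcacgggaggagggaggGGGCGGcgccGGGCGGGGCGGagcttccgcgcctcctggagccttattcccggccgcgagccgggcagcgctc
ERRFI1, chr1:8026310-8026559, minus strand: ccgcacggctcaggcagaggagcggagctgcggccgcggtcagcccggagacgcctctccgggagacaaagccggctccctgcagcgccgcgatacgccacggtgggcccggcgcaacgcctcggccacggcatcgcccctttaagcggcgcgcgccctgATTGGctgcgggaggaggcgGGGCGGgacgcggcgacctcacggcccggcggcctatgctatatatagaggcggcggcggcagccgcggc
Both windows are rich in G and C, with a GC content of 76.4% and 33 CpG for HBEGF and 75.2% and 39 CpG for ERRFI1, against a median GC content of 58.0% over the 35116 promoters of the RefSeq table. This is not particular to them, since 1 window each of ADAM17 (75.6%), TGFA (75.6%) and EGFR (73.6%) had a similar GC content and GC boxes too. The HBEGF window holds 5 GC boxes, a pair of which share 1 base, and the ERRFI1 window holds 1 GC box and 1 CCAAT box. A GC box occurs in 42.6% of all these windows and a CCAAT box in 32.0%; both motifs were added after the sequences had been seen. No letters matching AP-1 (TGANTCA), TEAD (GGAATG), CRE (TGACGTCA), the CArG box or the NF-kB site were found in either window on either strand. Those motifs occur in 6.57%, 11.9%, 1.65%, 1.16% and 9.96% of all windows. Of the other members, AREG has the CRE letters 65 bases before its start, ERBB2 those of AP-1, EREG those of TEAD, BTC and 1 of the windows of TGFA those of the NF-kB site, and ADAM17 those of both TEAD and NF-kB. EGFR has none in the window nearest its annotated start, while its other listed promoter has those of AP-1 and TEAD. ERBB3 had no entry in the table.

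HBEGF, heparin-binding EGF-like growth factor (ENSG00000113070, GRCh38 chr5:140332843-140346631, minus strand, protein coding), had the largest change of the members. Its normalized counts were 1002, 374 and 311 in DMSO 1, 2 and 3. In CA4 1, 2 and 3 they were 3502, 1815 and 2832. Every CA4 library was above every DMSO library, and in each group the library numbered 1 was the highest. Mean levels were 563 ± 382 without and 2716 ± 849 with CA4 (SD, n = 3 each). The log2 fold change was 2.42 with an SE of 0.44 (limma adjusted p = 0.0269), or 5.35-fold with a 95% interval of 2.64 to 10.9. By log2 fold change HBEGF ranked 40 among the 13928 tested genes. DMSO 1 stood apart from the other DMSO libraries. Without it the log2 fold change was 2.94 (limma adjusted p = 0.00445), and it stayed past the threshold without CA4 2 (0.0423). Leaving out DMSO 2, DMSO 3, CA4 1 or CA4 3 gave limma adjusted p-values of 0.103, 0.100, 0.0902 and 0.0935, with log2 fold changes of 2.10 to 2.36. The call was also lost in limma without a variance trend (adjusted p = 0.0807). The exact permutation test on HBEGF alone gave p = 0.1, the smallest that 3 against 3 allows. Summed proliferation markers (MKI67, TOP2A, CCNB1, BUB1 and CDK1) were 9617, 4647 and 4329 in DMSO against 7966, 4491 and 2400 in CA4, so the library numbered 1 was the highest of its group for these too. Their part in the HBEGF level was not tested.

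Among the 5 member ligands HBEGF was also the most abundant transcript on a scale that allows genes to be compared, normalized counts per kilobase of the principal transcript. On that scale its level averaged 236 ± 160 without and 1138 ± 356 with CA4 (SD, n = 3 each). Of these 5, TGFA followed with 10.7 ± 0.65 and 17.4 ± 2.99. Of the summed level per kilobase of the 5 ligands, HBEGF made up 95.7%, 91.7% and 89.2% in DMSO 1, 2 and 3 and 97.9%, 97.0% and 98.3% in CA4 1, 2 and 3. HBEGF thus led these 5 ligands in every library of both groups. EGF, a further ligand outside the members, is not part of these shares. Its mean normalized counts, not divided by length, were 78.6 in DMSO and 49.2 in CA4, against 46.2 and 74.9 for TGFA.

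TGFA, transforming growth factor alpha (ENSG00000163235, chr2:70447280-70554193, minus strand), had normalized counts of 45.4, 43.9 and 49.4 in DMSO and 87.0, 76.3 and 61.3 in CA4. Groups did not overlap, the DMSO libraries lay close together and the CA4 libraries spread more widely. Means were 46.2 ± 2.8 in DMSO and 74.9 ± 12.9 in CA4 (SD over 3 libraries). The log2 difference was 0.67 with a 95% interval of 0.14 to 1.2. It missed the threshold (limma adjusted p = 0.134) and passed it under none of the alternatives run. The difference between HBEGF and TGFA in their response was not tested.

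AREG (amphiregulin), EREG (epiregulin) and BTC (betacellulin) were barely detected, and so no fold is given for them. AREG had 5, 0 and 3 recovered reads in DMSO and 12, 3 and 5 in CA4. EREG had 0, 3 and 2 reads in DMSO and 3, 2 and 3 in CA4. BTC had 13, 10 and 5 reads in DMSO and 3, 6 and 4 in CA4. Groups overlapped for each of the 3 ligands, and a count of 0 allows up to 3 reads. With no filter on low values limma gave adjusted p-values of 0.446, 0.605 and 0.577. Their genes lie near each other and near EPGN, a further ligand, within 486.2 kb of chromosome 4 (AREG at chr4:74445134-74455009, EREG at chr4:74365143-74388751, BTC at chr4:74744759-74794686). EPGN had no reads in 5 of the 6 libraries. A low level therefore held for the whole cluster in this line, with or without CA4, and no change of AREG, EREG or BTC was detected at this depth.

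EGFR (ENSG00000146648, chr7:55019021-55211628, plus strand), the receptor of all 5 ligands, was lower in CA4 in these libraries but missed the threshold. Its normalized counts were 4087, 3604 and 3502 in DMSO 1, 2 and 3. In CA4 1, 2 and 3 they were 3309, 2280 and 2224. All CA4 libraries lay below all DMSO libraries, with CA4 1 closest to them. Means were 3731 ± 313 in DMSO and 2604 ± 611 in CA4 (SD over 3 libraries). The log2 difference was -0.54 with a 95% interval of -0.91 to -0.17 and a limma adjusted p of 0.0952. Without CA4 1 the difference was -0.73 and passed (limma adjusted p = 0.0334), and DESeq2 on the recovered reads also called it (adjusted p = 0.0267), whereas edgeR did not. Leaving out any of the other 5 libraries kept it short of the threshold, with log2 differences of -0.58 to -0.44.

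ERBB2 (ENSG00000141736, chr17:39687914-39730426, plus strand), the partner receptor, had normalized counts of 2279, 2628 and 2847 in DMSO and 1670, 2392 and 1599 in CA4. Groups overlapped, since CA4 2 was above DMSO 1. Means were 2585 ± 286 in DMSO and 1887 ± 439 in CA4 (SD over 3 libraries). The log2 difference was -0.47 with a 95% interval of -0.86 to -0.09 and a limma adjusted p of 0.145. Without CA4 2 it was -0.65 and passed (limma adjusted p = 0.0431). ERBB3 (chr12:56076799-56103505, plus strand), a receptor whose kinase is nearly inactive, had 5, 18 and 3 reads in DMSO and 8, 7 and 9 in CA4. With 26 and 24 reads per group it was far below the other 2 receptors, whose levels per kilobase in DMSO were 569 ± 63.0 for ERBB2 and 380 ± 31.8 for EGFR against 1.38 ± 1.28 for ERBB3 (SD, n = 3).

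**Figure D2:**
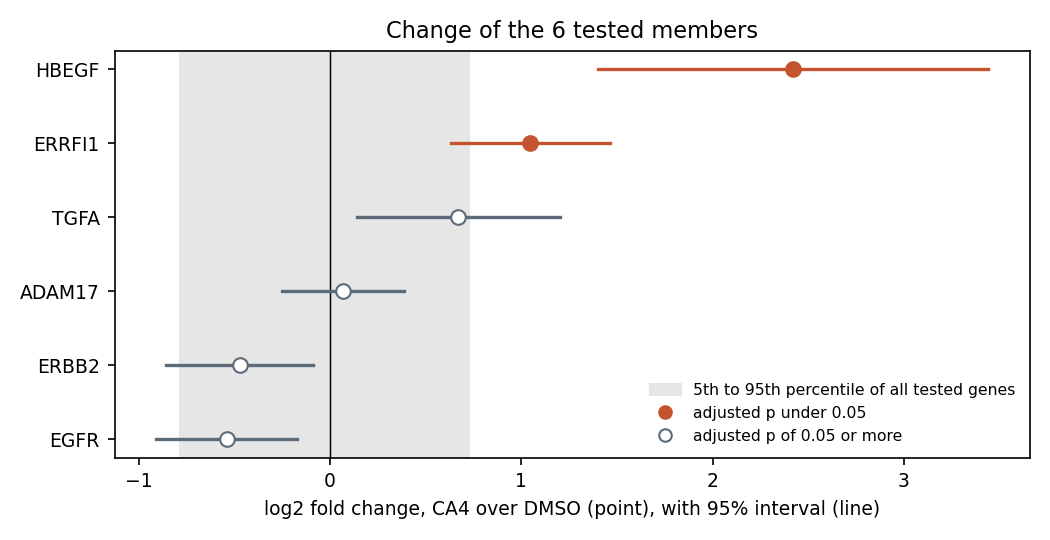
Log2 fold change of CA4 over DMSO for the 6 tested members (points) with 95% intervals (lines), filled where the limma adjusted p is under 0.05, over a grey band from the 5th to the 95th percentile of all tested genes (-0.78 to 0.73). HBEGF and ERRFI1 lie to the right of the band, and the other 4 points lie within it.

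ERRFI1 (ENSG00000116285, chr1:8004404-8026308, minus strand), the cytoplasmic inhibitor of the EGFR kinase, rose to a level about 2.07 times that of DMSO. Its normalized counts were 2996, 1992 and 1847 in DMSO 1, 2 and 3. In CA4 1, 2 and 3 they were 4418, 4375 and 5043. The groups did not overlap, DMSO 1 was the highest of the DMSO libraries as it was for HBEGF, and the CA4 libraries lay close together. Mean levels were 2278 ± 626 without and 4612 ± 374 with CA4 (SD, n = 3 each). The log2 fold change was 1.05 with an SE of 0.18 (limma adjusted p = 0.0217), or 2.07-fold with a 95% interval of 1.55 to 2.75. Without DMSO 1 the log2 value was 1.26 (limma adjusted p = 0.00311). Without DMSO 2, DMSO 3, CA4 1, CA4 2 or CA4 3 the limma adjusted p was 0.0918, 0.0890, 0.0703, 0.0504 and 0.0849, with log2 fold changes of 0.91 to 1.08. Limma without a variance trend gave an adjusted p of 0.0748 at the same log2 fold change. Both count models, edgeR (adjusted p = 0.0269) and DESeq2 (3.385e-06), called it. Per kilobase ERRFI1 had the highest mean of the 10 transcripts in each group, at 734 ± 202 without and 1486 ± 121 with CA4 (SD, n = 3 each), although ERBB2 was above it in DMSO 3 and HBEGF in CA4 1.

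ADAM17 (ENSG00000151694, chr2:9488486-9556732, minus strand), the sheddase that releases several EGFR ligands, had normalized counts of 1535, 1435 and 1091 in DMSO and 1497, 1332 and 1387 in CA4. Groups overlapped, with DMSO 3 below every CA4 library and DMSO 1 above every one. Means were 1354 ± 233 in DMSO and 1405 ± 84.2 in CA4 (SD over 3 libraries). The log2 difference was 0.07 with a 95% interval of -0.25 to 0.39 and a limma adjusted p of 0.816. Its sign turned with scaling to the same total and with the removal of DMSO 3. Of its exon bases 13.6% overlap a gene on the other strand, the largest share among the members, against 0% for HBEGF, AREG, EREG, TGFA and BTC and 3.7% for ERRFI1. Use of strand in the counting is not given in the sources used here.

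**Figure D3:**
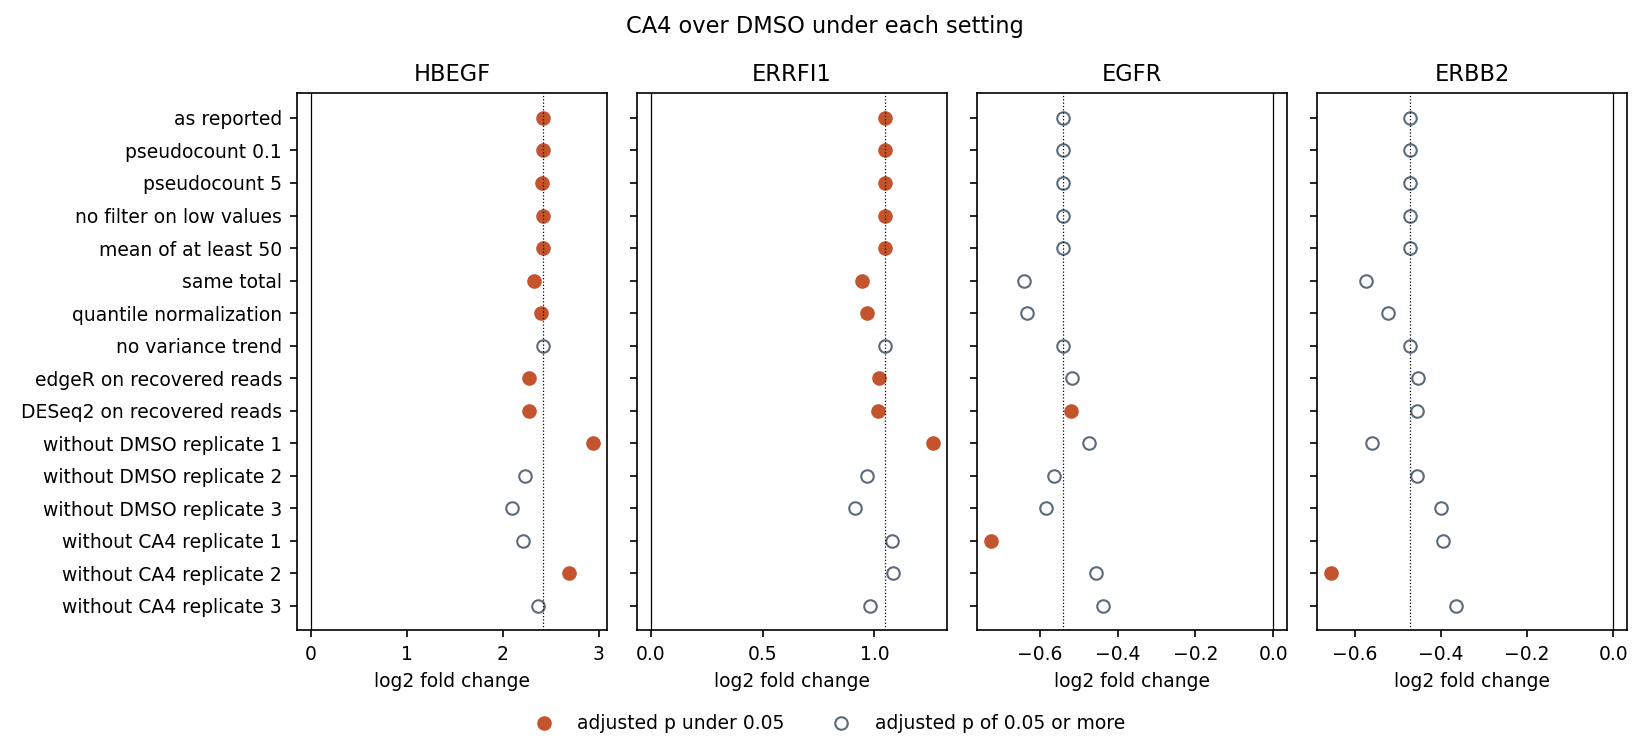
Log2 fold change of CA4 over DMSO for HBEGF, ERRFI1, EGFR and ERBB2 (1 panel each, horizontal axis) as reported and under 15 other settings (rows; the fit with the replicate number as a block is not drawn), filled where the adjusted p is under 0.05, with a dotted line at the reported value. The sign is the same in all rows for each of the 4 genes, while HBEGF loses its filled symbol in 5 rows and ERRFI1 in 6.

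Ratios within a library were computed because the library's scaling factor drops out of them. The ratio of HBEGF to EGFR was 0.245, 0.104 and 0.0889 in DMSO 1, 2 and 3 and 1.06, 0.796 and 1.27 in CA4 1, 2 and 3. Normalized counts of the ligand thus went from well below those of its receptor to about the same number. The mean log2 ratio was 2.96 higher in CA4 (two-sided exact permutation p = 0.1, the smallest possible). HBEGF was higher and EGFR lower in every CA4 library than in any DMSO library, so this p was fixed by those values. The ratio of ERRFI1 to EGFR was 0.733, 0.553 and 0.527 in DMSO and 1.33, 1.92 and 2.27 in CA4. Counts of the inhibitor were below the receptor's in every DMSO library and above them in every CA4 library, with a log2 difference of 1.59 (exact permutation p = 0.1). This p too was fixed, since ERRFI1 was higher and EGFR lower in every CA4 library. The ratio of ERBB2 to EGFR was 0.558, 0.729 and 0.813 in DMSO and 0.505, 1.05 and 0.719 in CA4, and these groups overlapped (log2 difference 0.07, exact permutation p = 1). These are ratios of counts not divided by length, so they show change between groups and not relative abundance. Per kilobase ERRFI1 was above EGFR in every DMSO library too, at 965, 642 and 595 against 416, 367 and 357. On that scale HBEGF averaged 236 against 380 for EGFR in DMSO, and 1138 against 265 in CA4. In DMSO 1 alone HBEGF was at 420 per kilobase against 416 for EGFR.

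**Figure D4:**
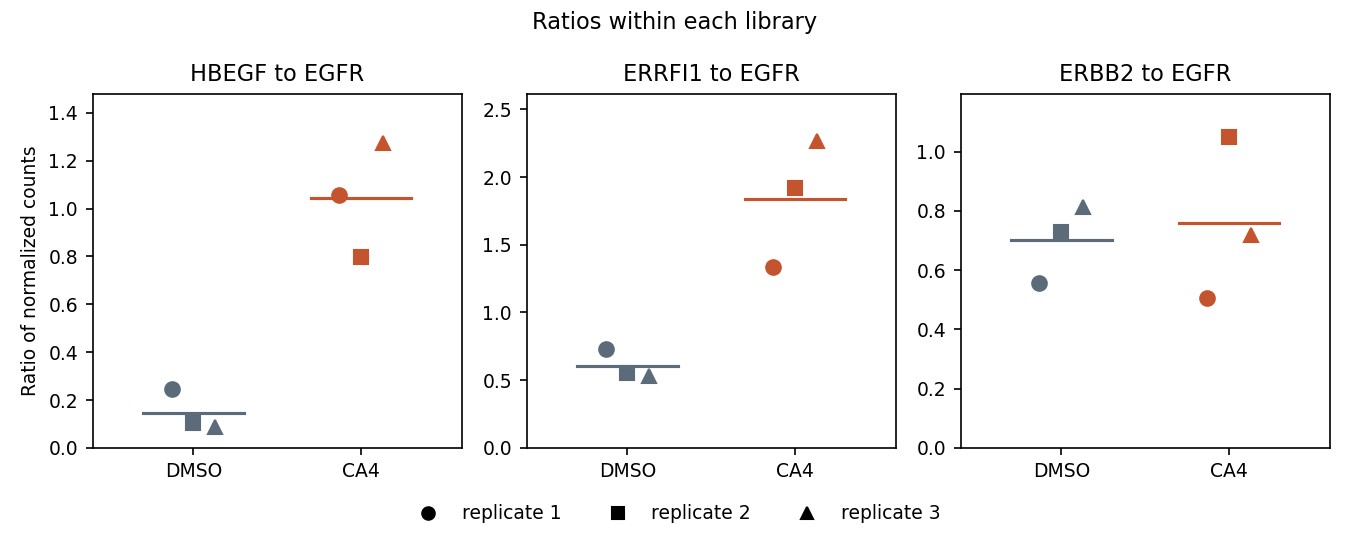
Ratio of normalized counts within each library for HBEGF, ERRFI1 and ERBB2 over EGFR (vertical axes from 0), with the replicate number as symbol and the group mean as a bar. The groups are apart for HBEGF (0.0889 to 0.245 in DMSO, 0.796 to 1.27 in CA4) and ERRFI1 and overlap for ERBB2. For HBEGF and ERRFI1 this follows from the genes' own values, since both were higher and EGFR lower in every CA4 library.

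The genes whose profiles over the 6 libraries lay nearest to each member that rose were found by the root mean square difference of log2 values after centring, among 11683 other genes averaging 50 normalized counts or more. For HBEGF they were ICAM1, an adhesion receptor for leukocytes (0.131), CLDN1, a tight junction protein (0.171), and CD274, the ligand PD-L1 (0.280), against a median distance of 1.36 over all candidates. Their log2 fold changes were 2.39, 2.18 and 2.40. For ERRFI1 they were ARID5A, an RNA-binding protein (0.0790), DOP1B (0.0929) and PCDH7, a protocadherin (0.111), against a median of 0.599. Their log2 fold changes were 1.02, 0.95 and 1.03. HBEGF and ERRFI1 lay 0.798 apart on the same measure, and EGFR and ERBB2 lay 0.347 apart. A profile over 6 libraries is fixed in large part by the difference between the groups, so nearness describes only these libraries.

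Other genes of the pathway were read from lists of ligands, sheddases, adaptors, inhibitors, endocytic factors and transcripts that follow ERK activity. Of 71 such genes 67 were tested, 2 rose, 3 fell and 62 did not pass, beside 4.94% past the threshold among all tested genes. This count of 5 was 11 without DMSO 1, 0 without DMSO 3, 2 without DMSO 2 or CA4 1, 1 in limma without a variance trend and 14 with DESeq2. Scaling to the same total gave 9, and a mean of at least 50 gave 8. Their median log2 fold change was -0.06 against -0.01 over all tested genes. None of the 3 tested genes among the other ligands and receptor of the family passed, with log2 differences of -0.81 for EGF, 0.06 for NRG1, a ligand of ERBB3 and ERBB4, and -0.14 for ERBB4. None of the 15 receptor adaptors and effectors, which include GRB2, SHC1 and PLCG1, passed either, with log2 differences from -1.04 to 0.21. The genes named in these lists without passing are examples and were not named by a rule.

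Of the 10 other sheddases and their regulators, ADAM19, a metalloprotease of the same family as ADAM17, rose and 9 did not pass. Its normalized counts were 10971, 9645 and 9368 in DMSO against 17644, 16901 and 13750 in CA4, with no overlap (log2 fold change 0.68, SE 0.11, limma adjusted p = 0.0217). Of the 14 genes of receptor ubiquitination and endocytosis, ANKRD13A, which binds ubiquitinated EGFR at the plasma membrane, rose and 13 did not pass. It had 1759, 1552 and 1522 normalized counts in DMSO and 3191, 2916 and 2636 in CA4 (log2 fold change 0.85, SE 0.10, limma adjusted p = 0.00992), and every CA4 library was above every DMSO library. Of all tested genes, 2.97% passed the threshold with a higher level, and the groups of 27.7% did not overlap.

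A further list, written from general knowledge, held 17 genes taken as other feedback inhibitors of the receptor and the ERK pathway. That role was not tested here. Of these 17, LRIG3, a transmembrane protein of the LRIG family, fell and 16 did not pass. Its normalized counts were 592, 560 and 894 in DMSO against 188, 294 and 242 in CA4, with no overlap (log2 fold change -1.48, SE 0.23, limma adjusted p = 0.0172). SPRY4, an inhibitor of RAS activation that was picked out after its values were seen, had 209, 86.0 and 107 normalized counts in DMSO and 501, 250 and 448 in CA4. Its groups did not overlap, and its log2 difference of 1.61 missed the threshold (SE 0.38, limma adjusted p = 0.0542). Near misses lay in the other direction too: SOCS3 (log2 difference -0.87, limma adjusted p = 0.0553) and SPRY1 (-1.23, 0.0850), also picked out after their values were seen, had no overlap between groups. Of all tested genes, 1.97% passed the threshold with a lower level, and the groups of 27.7% did not overlap.

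Of the 10 transcripts that follow ERK pathway output, 0 rose, DUSP4 and PHLDA1 fell and 8 did not pass. Among all tested genes 2.97% rose and 1.97% fell past the threshold. DUSP4, a nuclear phosphatase of ERK, had 430, 524 and 454 normalized counts in DMSO and 229, 185 and 197 in CA4 (log2 fold change -1.20, SE 0.14, limma adjusted p = 0.00901). PHLDA1, a pleckstrin homology-like domain protein, had 2247, 2560 and 2181 in DMSO and 1268, 1371 and 1555 in CA4 (log2 fold change -0.74, SE 0.11, limma adjusted p = 0.0158). The groups did not overlap for either gene, nor for 27.7% of all tested genes. DUSP6, a cytoplasmic ERK phosphatase also named after its values were seen, had 284, 226 and 236 in DMSO and 303, 186 and 331 in CA4 (log2 difference 0.10, SE 0.23, limma adjusted p = 0.843). The 8 that did not pass had log2 differences from -0.63 to 1.61, the latter being SPRY4, which stands in both lists. Of the fits that leave out 1 library, DUSP4 and ANKRD13A lost their calls only in that without DMSO 3 (limma adjusted p = 0.0506 and 0.0515), whereas ADAM19 and LRIG3 kept theirs in 2 of 6 such fits and PHLDA1 in 3. Without a variance trend DUSP4 alone of the 5 stayed past the threshold (limma adjusted p = 0.0355), and the others had 0.0755 (ADAM19), 0.0636 (LRIG3), 0.0508 (ANKRD13A) and 0.0636 (PHLDA1).

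**Figure D5:**
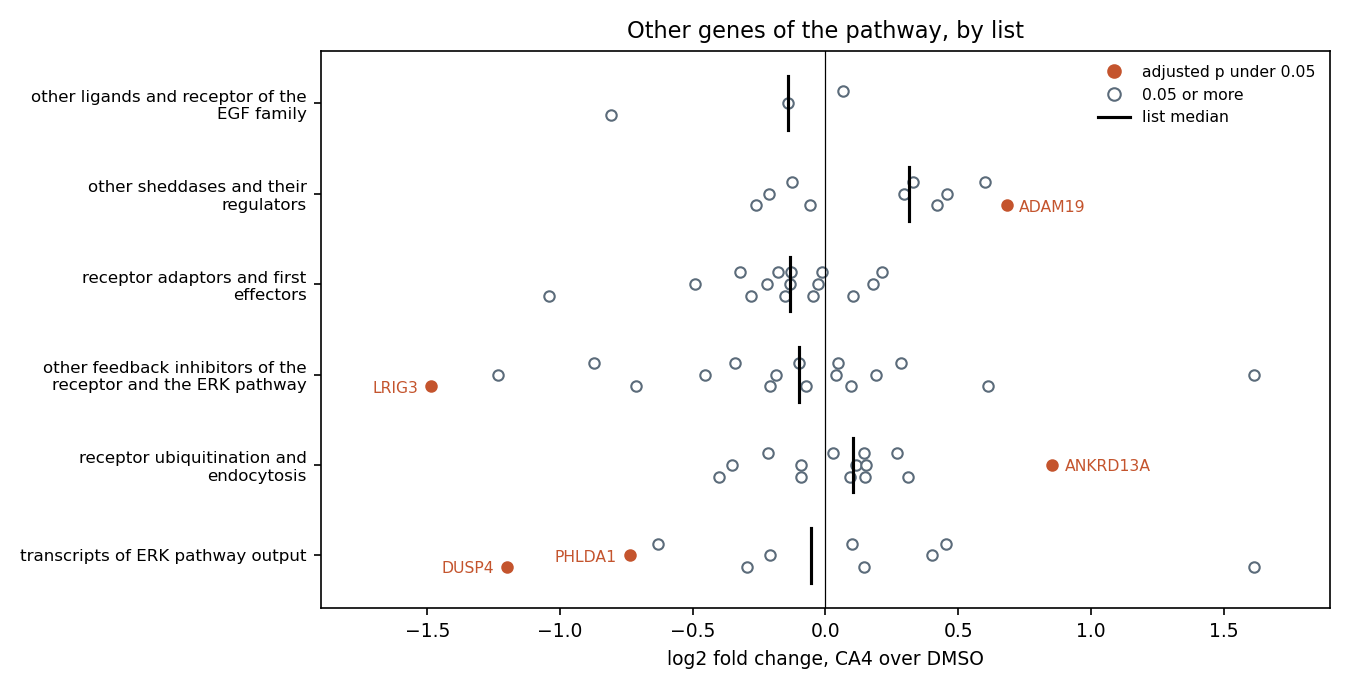
Log2 fold change of CA4 over DMSO (horizontal axis) for the tested genes of 6 pathway lists (rows), filled and named where the limma adjusted p is under 0.05, with each list's median as a bar. The 5 named genes lie on both sides of 0, and the medians lie between -0.14 and 0.31.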

How the data were processed

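PolyA RNA was sequenced in 3 CA4 and 3 DMSO libraries, grouped by their titles. The deposited values are a signal, gene read counts that the authors divided by a scaling factor of each library, with 1 column per library and Ensembl gene IDs as rows per the file headers. The submitters' processing notes name Trim Galore 0.6.6, FastQC 0.12.1, STAR 2.7.9a, Salmon 1.8.0, DESeq2 1.44.0 and GRCh38. Which of these tools made the counts, the annotation release and the use of strand are not given in the sources used here. In every column 100% of the values were whole multiples of 1 read within a tolerance of 0.01, which gave back whole reads that may be rounded estimates. Limits based on 0 reads cover counting error only, because no molecular identifiers show which reads are copies of the same molecule.

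Of 38900 IDs 35803 had a symbol, and 17103 had no read. The 13928 genes with a mean of at least 10 were fitted on log2(normalized count + 1) with limma 3.58.1 in R 4.3.3 (treatment as the only term, mean trend, two-sided, Benjamini-Hochberg over all tested genes, threshold 0.05). On that scale fold changes of low genes are understated. For single values a two-sided exact permutation over libraries was used, which cannot go below 0.1. The alternatives were pseudocounts, filters, scalings, no variance trend, a replicate block, edgeR 4.0.16 and DESeq2 1.42.0 on the recovered reads, and leaving out each library. Scripts were tested on simulated data. The members, lists and tests were chosen with earlier results of these data known. Named are all members, every pathway gene past the threshold (at most 5 per list), and for each member past it the 3 genes with the nearest profiles; other names are examples or were picked after their values were seen, as marked. Coordinates and exon overlaps are from GENCODE 29 and promoters from RefSeq, which had an entry for 9 of the 10 members. No 2 columns were identical.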

Additional observations from a re-analysis of the deposited data

How the results depend on the processing

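Genes past the threshold numbered 103 without a variance trend, 1613 with DESeq2 and 81 to 994 when 1 library was left out, against 688. For the members it was 0 without the trend and 0 to 2 with 1 library left out: 0 without DMSO 2, DMSO 3 or CA4 3, 1 (EGFR, lower) without CA4 1, and 2 without CA4 2 (HBEGF higher, ERBB2 lower) or DMSO 1 (HBEGF and ERRFI1). DESeq2 called 3 members, with EGFR lower. For the pathway genes it was 8 with a mean of at least 50, 9 with the same total (2 higher, 7 lower), 1 without the trend, 14 with DESeq2 and 0 to 11 with 1 library left out, against 5. The log2 fold change of ADAM17 became -0.0339 with the same total and ranged from -0.0804 (without DMSO 3) to 0.165 with 1 library left out. All other log2 fold changes of tested members kept their sign in all of these fits. The count of members without overlap was 5 with the same total and 4 with quantile normalization. No other fit could lower it, since those fits used the same values or only removed a library. The causes were not tested.

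With the replicate block, limma called 2397 genes (17.2% of those tested), 19 pathway genes and 3 members, which added EGFR (log2 fold change -0.54, adjusted p = 0.0105). Nothing in the labels ties equal numbers to 1 culture or 1 day. Deviations of same-numbered libraries correlated at 0.202, 0.159 and 0.059, so the numbers were not taken as pairs. Of the 6 libraries, 5 correlated best with their own number; CA4 3 did so with DMSO 2.

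Depth limits AREG, EREG, BTC and ERBB3, whose groups held 5 to 28 reads in all.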
